A study of Homo sapiens with 9 samples.

Results

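The plasminogen activator system and the tissue inhibitors of metalloproteinases (TIMPs) were described here through 9 genes, PLAU, PLAUR, PLAT, SERPINE2, SERPINB2, TIMP1, TIMP2, TIMP3 and TIMP4. They were taken as every probe set whose annotated symbol is one of these 9, a rule that uses no expression value. The choice of the 9 genes itself was made with earlier results of these data known. Of the 9 genes, 8 had a probe set, 17 of the 54675 probe sets and 8 of the 19775 genes on the array. PLAUR had 3 probe sets, TIMP2 had 3, TIMP3 had 4, PLAU and SERPINE2 had 2 each, and PLAT, TIMP1 and TIMP4 had 1 each. SERPINB2, a serpin that inhibits both activators, was not matched to a probe set and was not analysed here.

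RNA of 3 human breast cancer cell lines was hybridised to Affymetrix U133 Plus 2.0 arrays, 3 technical replicates per line and 9 arrays in all. B6TC is a GFP-positive line whose growth in the mouse needed no estrogen. The labels call it a fusion of the other 2 lines. It was taken from a tumor that B6 cells, a mixed GFP-positive population recovered from mouse bone marrow, had formed in a nude mouse without estrogen supplementation, and most of its cells withstood both G418 and puromycin. Its cells were selected with G418 after isolation. MDA-MB-231/GFP/Neo, the ER negative parent, is 1 GFP-transfected clone resistant to G418, and ZR-75-1/GFP/puro, the ER positive parent, is a pool of GFP-carrying cells resistant to puromycin. All 3 lines therefore carry GFP. The labels call the replicates technical, so every p-value below measures the spread between arrays and not between cultures or tumors. Since B6TC and MDA-MB-231 differ in how they were derived, selected and passaged, these differences in history cannot be told apart in the comparison between them.

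Urokinase (PLAU) and tissue plasminogen activator (PLAT) are secreted serine proteases that cut plasminogen into plasmin, a broad protease that degrades fibrin and matrix and can activate pro-metalloproteinases. The urokinase receptor PLAUR holds urokinase at the cell surface, and serpins such as SERPINE2, also named protease nexin-1, inactivate the activators. TIMPs bind the active site of metalloproteinases downstream, and both arms are much studied in tumor cell invasion.

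The arrays were alike in scale, with array medians of 4.89 to 4.96 on the log2 scale and 33.9% to 34.8% of the probe sets reaching 6. A probe set was tested where it reached 6 on at least 3 of the 9 arrays, so that 21095 probe sets were tested, among them 16 of the 17 member probe sets. The median SD within a line was 0.079. The third B6TC array stood apart in luminal epithelial markers, since the mean of 10 such markers was 7.17, 7.14 and 8.37 for B6TC, 7.09 to 7.28 for MDA-MB-231 and 11.9 for each ZR-75-1 array. CDH1, the epithelial cadherin, read 3.38, 3.26 and 6.89 on the B6TC arrays, and TFF1, another of these markers, read 5.04, 4.98 and 9.08. Whether the third array holds the same RNA as the other B6TC arrays was not tested. On the MDA-MB-231 arrays CDH1 read 3.37, 3.44 and 3.86 and TFF1 read 5.35, 5.69 and 6.495, so that the third array was highest there too, by less. The mean of 7 mesenchymal markers was 11.5 to 11.6 in B6TC, 11.2 to 11.3 in MDA-MB-231, with ZR-75-1 at 4.66 to 4.72. None of 4 leukocyte markers reached 6 on any array, and 1 or 2 of 6 fibroblast markers did on every array. One of 4 endothelial markers, PECAM1, reached 6 on the B6TC and MDA-MB-231 arrays and none on the ZR-75-1 arrays. No call on a member probe set changed without the third B6TC array, and results of other genes that did change are given both ways. In RNA of a whole culture, fewer cells that express a gene and less RNA per cell cannot be told apart.

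The sequences just upstream of the transcription start are shown for 4 members, because PLAU, PLAUR and TIMP3 were at much higher levels in B6TC and MDA-MB-231 than in ZR-75-1 whereas TIMP1 was at nearly the same level in all 3 lines. Each run is the 250 bases before a start site in RefSeq on GRCh38.p14, written 5′ to 3′ on the strand of the gene. Capitals mark the GC box GGGCGG or the AP-1 motif TGAGTCA, read on either strand (CCGCCC and TGACTCA on the reverse). Neither motif overlaps the other in these windows. For PLAU, which has 2 start windows in RefSeq, the one shown is the more GC rich, with 68.8% G and C against 46.8% in the other. The windows lie on the plus strand at chr10:73910882-73911131 (PLAU), on the minus strand at chr19:43670170-43670419 (PLAUR), and on the plus strand at chrX:47582186-47582435 (TIMP1) and chr22:32801455-32801704 (TIMP3).
PLAU: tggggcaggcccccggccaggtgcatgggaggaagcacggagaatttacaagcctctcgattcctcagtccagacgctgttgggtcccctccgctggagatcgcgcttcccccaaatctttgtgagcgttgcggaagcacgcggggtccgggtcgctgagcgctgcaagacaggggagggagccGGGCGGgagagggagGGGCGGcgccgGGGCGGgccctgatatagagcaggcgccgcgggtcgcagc
PLAUR: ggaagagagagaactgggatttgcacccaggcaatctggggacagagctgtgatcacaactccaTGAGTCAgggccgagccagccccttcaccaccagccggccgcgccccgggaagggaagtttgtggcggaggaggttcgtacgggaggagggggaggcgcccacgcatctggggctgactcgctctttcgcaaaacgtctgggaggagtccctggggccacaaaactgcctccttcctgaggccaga
TIMP1: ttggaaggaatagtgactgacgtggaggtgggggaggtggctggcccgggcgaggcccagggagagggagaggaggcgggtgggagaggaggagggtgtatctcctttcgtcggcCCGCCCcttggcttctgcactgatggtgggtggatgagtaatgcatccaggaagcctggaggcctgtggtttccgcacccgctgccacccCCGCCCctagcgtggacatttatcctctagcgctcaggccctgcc
TIMP3: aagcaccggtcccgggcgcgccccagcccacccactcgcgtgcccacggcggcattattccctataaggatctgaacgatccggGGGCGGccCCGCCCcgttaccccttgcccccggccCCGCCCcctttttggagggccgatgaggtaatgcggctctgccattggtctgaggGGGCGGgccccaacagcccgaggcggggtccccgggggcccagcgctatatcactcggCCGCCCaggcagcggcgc
A GC box was found 3 times in the PLAU window, 2 times in that of TIMP1, 5 times in that of TIMP3 and not in that of PLAUR. Of 35116 promoter windows of the same length, 42.6% held at least 1. The AP-1 motif stood once in the PLAUR window, 186 bases before the start, and in none of the other 3; 4.20% of all windows held it. TIMP3 had 26 CpG dinucleotides in these 250 bases, PLAU 24, PLAUR 13 and TIMP1 12, beside a median of 11 over all windows. Windows not shown held 4 (the other PLAU window, with no GC box), 6 and 28 (SERPINE2) and 11 (TIMP4). SERPINE2 and TIMP4 were also higher in B6TC and MDA-MB-231 than in ZR-75-1. Of the 8 measured members, 6 had a window among those used. No window was found for TIMP2, PLAT was not looked up, and both are only named. These matches describe the letters and were not set against binding data.

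Between B6TC and MDA-MB-231, the question was how the hybrid line differed from its ER negative parent. PLAT and SERPINE2 were more than 2-fold higher in B6TC and TIMP4 more than 2-fold lower, and the other differences were under 1.5-fold. Of the 16 tested member probe sets, 11 passed the test at an adjusted p of 0.05 or less (limma, Benjamini-Hochberg over all tested probe sets), 68.8% beside 65.1% of all probe sets tested. They were called higher in 6 cases and lower in 5, where 33.9% of all probe sets were called higher and 31.3% lower. At 2-fold or more the members called were 3, where 3.85% of all probe sets were called at that size. The activator genes are here PLAU, PLAUR, PLAT and SERPINE2, although PLAUR is a receptor and SERPINE2 an inhibitor. Of their 7 tested probe sets, 5 were higher and none lower, with a median log2 difference of 0.35. The higher ones were of PLAT, PLAU, PLAUR and SERPINE2, and the other PLAU probe set, at -0.23, was not called. Of the 9 TIMP probe sets 1 was higher and 5 lower, with a median of -0.24. Taken over all 16, the median was -0.0027. Over all tested probe sets it was 0.0086. Without the filter 10 of the 17 member probe sets were called, 5 higher and 5 lower, beside 30.7% of all probe sets.

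**Figure D1:**
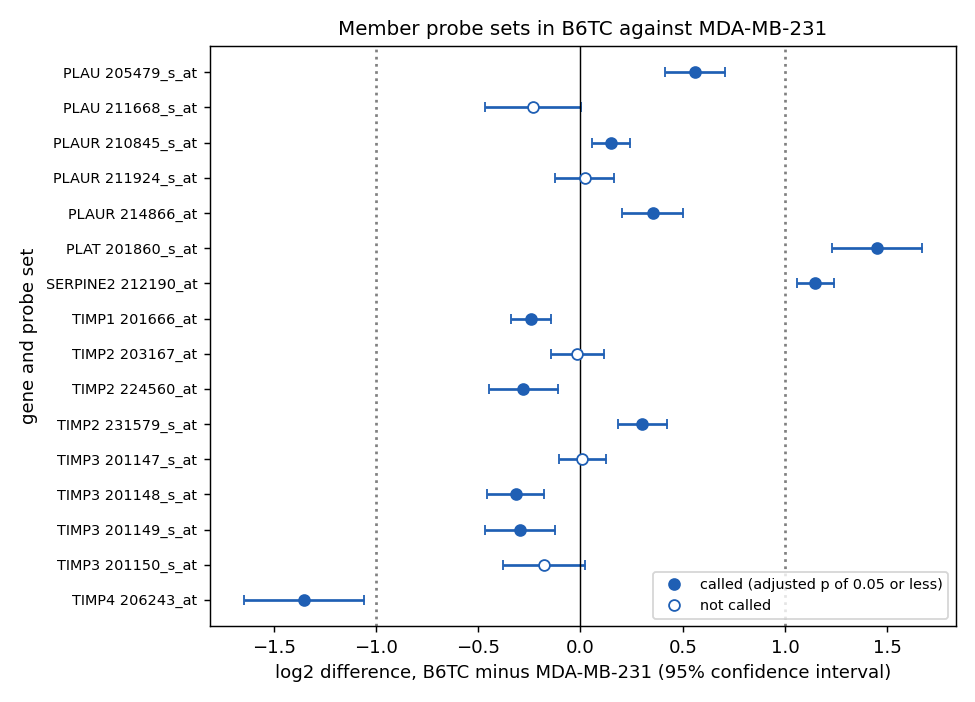
Log2 difference of B6TC minus MDA-MB-231 for the 16 tested probe sets (points, filled where called), with 95% confidence intervals (bars) and dotted lines at 2-fold. PLAT at 1.45 and SERPINE2 at 1.15 lie right of the upper line and TIMP4 at -1.35 left of the lower one.

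Among the activators, PLAT differed most. Its probe set 201860_s_at read 10.34, 10.27 and 10.38 in B6TC, 8.97, 8.85 and 8.85 in MDA-MB-231, with ZR-75-1 at 2.63, 2.95 and 2.51. The 3 lines were apart on every array, in the order B6TC, MDA-MB-231, ZR-75-1. B6TC was higher than MDA-MB-231 by 1.45 on the log2 scale (SE 0.098, 2.73-fold, limma adjusted p 1.205e-06). The difference was 7.64 in B6TC against ZR-75-1 (limma adjusted p 1.347e-12) and 6.19 in MDA-MB-231 against ZR-75-1 (limma adjusted p 5.187e-12). The ZR-75-1 values lie far below the filter level, and how the estimation of low values bears on the size of these differences was not tested. Leaving out any array gave 1.42 to 1.49 for B6TC minus MDA-MB-231.

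PLAU was read by 2 probe sets that disagreed between B6TC and MDA-MB-231. On 205479_s_at the values were 9.83, 9.85 and 9.87 in B6TC, 9.28, 9.30 and 9.28 in MDA-MB-231, with ZR-75-1 at 4.07, 4.35 and 4.29. On 211668_s_at they were 9.20, 9.20 and 9.15 in B6TC, 9.34, 9.45 and 9.44 in MDA-MB-231, with ZR-75-1 at 3.92, 4.26 and 3.75. The arrays of the first 2 lines did not overlap on either probe set, with B6TC above MDA-MB-231 on the one and below it on the other. The differences of B6TC minus MDA-MB-231 were 0.56 (SE 0.066, 1.48-fold, limma adjusted p 4.079e-05) and -0.23 (SE 0.11, 95% interval -0.47 to 0.0040, limma adjusted p 0.0776). Without the second ZR-75-1 array the -0.23 was called (adjusted p 0.005006 in limma), and without the third ZR-75-1 array also (adjusted p 0.02711 in limma). It was also called with robust regression (limma adjusted p 0.001023), with robust and trended variances (limma adjusted p 0.04277) and with the arrays of the compared lines alone (limma adjusted p 0.003421). The gap of 205479_s_at over 211668_s_at within an array was 0.67 ± 0.051 in B6TC (SD, n = 3), -0.13 ± 0.056 in MDA-MB-231, with ZR-75-1 at 0.26 ± 0.25. The mean of both probe sets was 0.16 higher in B6TC and was not called (limma adjusted p 0.06078). Against ZR-75-1, PLAU was higher by 5.61 and 5.21 in B6TC and by 5.05 and 5.44 in MDA-MB-231, at limma adjusted p of 2.382e-11 or less.

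PLAUR, the receptor, gave smaller differences. Probe set 214866_at read 7.42, 7.40 and 7.30 in B6TC, 7.05, 6.98 and 7.03 in MDA-MB-231, with ZR-75-1 at 4.46, 4.70 and 4.66, and the lines did not overlap. B6TC was higher than MDA-MB-231 by 0.35 (SE 0.066, limma adjusted p 0.0009822). On 210845_s_at the values were 9.98, 9.96 and 9.92 in B6TC, 9.82, 9.84 and 9.76 in MDA-MB-231, with ZR-75-1 at 5.17, 5.21 and 5.16. B6TC was higher there by 0.15 (SE 0.042, limma adjusted p 0.01079), a call that was lost when no probe set was filtered out (limma adjusted p 0.06583). On 211924_s_at B6TC arrays lay between 9.82 and 9.92, MDA-MB-231 arrays between 9.75 and 9.93 and ZR-75-1 arrays between 5.66 and 5.85. The first 2 lines overlapped there, and their difference of 0.020 (95% interval -0.12 to 0.16) was not called (limma adjusted p 0.798). Against ZR-75-1 the 3 probe sets were higher by 2.77 to 4.77 in B6TC and by 2.41 to 4.62 in MDA-MB-231.

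SERPINE2, an extracellular inhibitor of urokinase, plasmin and thrombin, was higher in B6TC. Probe set 212190_at read 10.60, 10.62 and 10.64 in B6TC, 9.48, 9.48 and 9.46 in MDA-MB-231, with ZR-75-1 at 6.76, 6.81 and 6.82. The lines stood apart on every array, in that order. B6TC was higher than MDA-MB-231 by 1.15 (SE 0.040, 2.22-fold, limma adjusted p 2.714e-08) and than ZR-75-1 by 3.82 (limma adjusted p 4.439e-13), and MDA-MB-231 was higher than ZR-75-1 by 2.68 (limma adjusted p 3.676e-12). The other SERPINE2 probe set, 227487_s_at, lay at 3.14 to 3.52 on all 9 arrays and was not tested. In a fit without the filter its differences were 0.16 for B6TC minus MDA-MB-231, 0.21 for B6TC minus ZR-75-1 and 0.057 for MDA-MB-231 minus ZR-75-1, of which the second alone passed the test (limma adjusted p 0.03671).

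**Figure D2:**
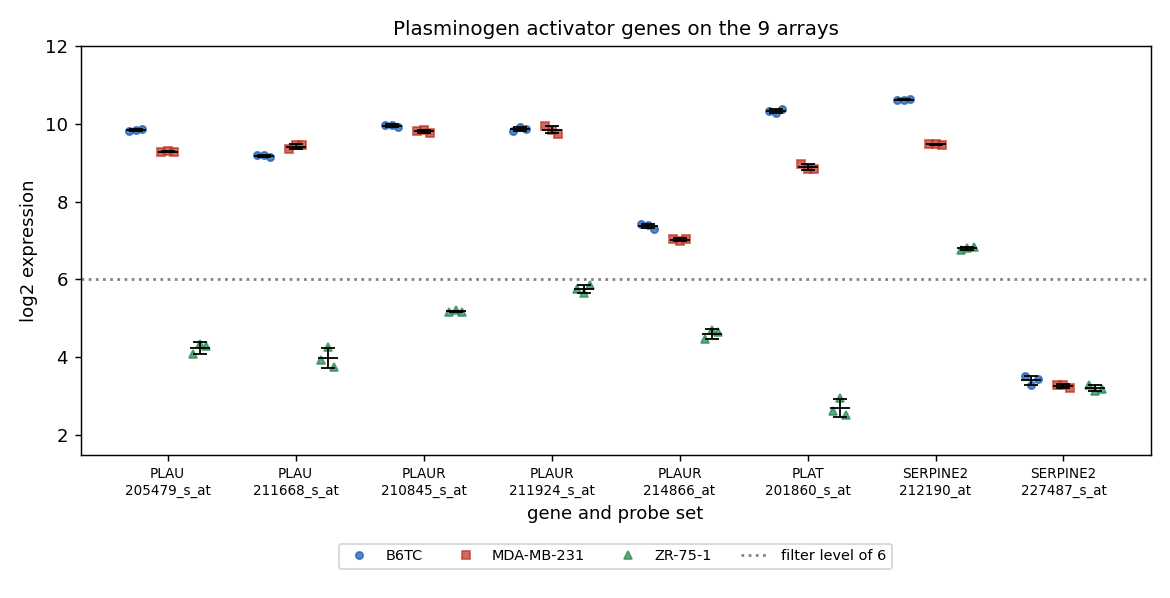
Log2 expression of the 8 probe sets of PLAU, PLAUR, PLAT and SERPINE2 on every array (points), with the mean and SD of 3 arrays per line (bars), and the filter level of 6 as a dotted line. PLAT and SERPINE2 212190_at fall in the order B6TC, MDA-MB-231, ZR-75-1, while the 2 PLAU probe sets put the first 2 lines in opposite order.

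TIMP4 was the TIMP that differed most between B6TC and MDA-MB-231. Probe set 206243_at read 6.03, 5.61 and 6.04 in B6TC, 7.31, 7.25 and 7.17 in MDA-MB-231, with ZR-75-1 at 4.03, 4.30 and 3.86. B6TC lay between the other lines, and no array of one line overlapped another line. B6TC was lower than MDA-MB-231 by a log2 difference of -1.35 (SE 0.13, 2.55-fold, limma adjusted p 1.124e-05), and leaving out any array gave -1.43 to -1.21. B6TC was higher than ZR-75-1 by 1.83 (limma adjusted p 2.857e-07) and MDA-MB-231 higher than ZR-75-1 by 3.18 (limma adjusted p 3.47e-09). The B6TC mean of 5.89 lies just under the filter level, which the probe set passed through the MDA-MB-231 arrays and 2 B6TC arrays.

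TIMP1, a secreted inhibitor that also forms a complex with pro-MMP9, was nearly level in the 3 lines. Its values were 10.12 in all 3 B6TC replicates, 10.38, 10.37 and 10.35 in those of MDA-MB-231, with ZR-75-1 at 10.01, 10.10 and 9.98. The lines did not overlap, with MDA-MB-231 highest. B6TC was lower than MDA-MB-231 by a log2 difference of -0.24 (SE 0.044, limma adjusted p 0.0007137), and MDA-MB-231 was higher than ZR-75-1 by 0.34 (SE 0.044, limma adjusted p 3.347e-05). The difference of 0.093 between B6TC and ZR-75-1 was not called (95% interval -0.0041 to 0.19, limma adjusted p 0.06882), and it was called without the second ZR-75-1 array, at 0.13 (limma adjusted p 0.01996). Calls were gained as well with robust regression, with robust and trended variances, with arrays centered on their medians and with averaged probe sets (limma adjusted p 9.987e-05 to 0.04181).

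TIMP2, which inhibits MMP2 and also takes part in activating pro-MMP2 with MMP14, had 3 probe sets, and 2 of them were called in opposite directions. On 224560_at the values were 10.69, 10.76 and 10.71 in B6TC, 11.05, 10.94 and 11.01 in MDA-MB-231, with ZR-75-1 at 6.04, 6.23 and 6.37. On 231579_s_at they were 10.98, 10.97 and 10.92 in B6TC, 10.75, 10.62 and 10.59 in MDA-MB-231, with ZR-75-1 at 5.78, 5.68 and 5.77. B6TC was below MDA-MB-231 on every array of the first and above it on every array of the second. The differences of B6TC minus MDA-MB-231 were -0.28 (SE 0.075, limma adjusted p 0.008247) and 0.30 (SE 0.054, limma adjusted p 0.0007144). The gap of 231579_s_at over 224560_at was 0.24 ± 0.046 in B6TC, -0.35 ± 0.062 in MDA-MB-231, with ZR-75-1 at -0.47 ± 0.18 (SD, n = 3 each). On the third probe set, 203167_at, the B6TC arrays (8.12 to 8.22) and the MDA-MB-231 arrays (8.12 to 8.30) overlapped, with a difference of -0.015 (95% interval -0.15 to 0.12, limma adjusted p 0.8365). Averaged over its probe sets TIMP2 differed by 0.0028 between B6TC and MDA-MB-231 (limma adjusted p 0.964), so no direction is given for the gene. Against ZR-75-1 all 3 were higher, by 2.42 to 5.21 in B6TC and by 2.44 to 4.91 in MDA-MB-231.

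TIMP3, the TIMP that binds the extracellular matrix and inhibits ADAM17, had 4 probe sets. On 201148_s_at the values were 8.68, 8.64 and 8.66 in B6TC, 9.05, 8.96 and 8.92 in MDA-MB-231, with ZR-75-1 at 6.88, 6.996 and 7.12. On 201149_s_at they were 9.84, 9.78 and 9.76 in B6TC, 10.13, 10.06 and 10.07 in MDA-MB-231, with ZR-75-1 at 6.83, 6.94 and 6.61. All B6TC arrays were below all MDA-MB-231 arrays on both, with differences of -0.32 (SE 0.062, limma adjusted p 0.001289) and -0.30 (SE 0.077, limma adjusted p 0.00649). The difference on 201150_s_at was -0.18 (95% interval -0.38 to 0.023, limma adjusted p 0.1068), with arrays of 10.35 to 10.43 in B6TC and 10.48 to 10.64 in MDA-MB-231. On 201147_s_at the lines overlapped, at 10.35 to 10.48 in B6TC and 10.37 to 10.46 in MDA-MB-231, with a difference of 0.0095 (95% interval -0.10 to 0.12, limma adjusted p 0.8803). The call on 201150_s_at was gained without the first or the third ZR-75-1 array (limma adjusted p 0.02442 and 0.04854), with robust regression (limma adjusted p 0.02093) and with the arrays of the compared lines alone (limma adjusted p 0.02117). Averaged over its probe sets TIMP3 was lower in B6TC by a log2 difference of -0.20 (limma adjusted p 0.002522). Against ZR-75-1 the 4 probe sets were higher by 1.66 to 4.77 in B6TC and by 1.98 to 4.95 in MDA-MB-231.

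**Figure D3:**
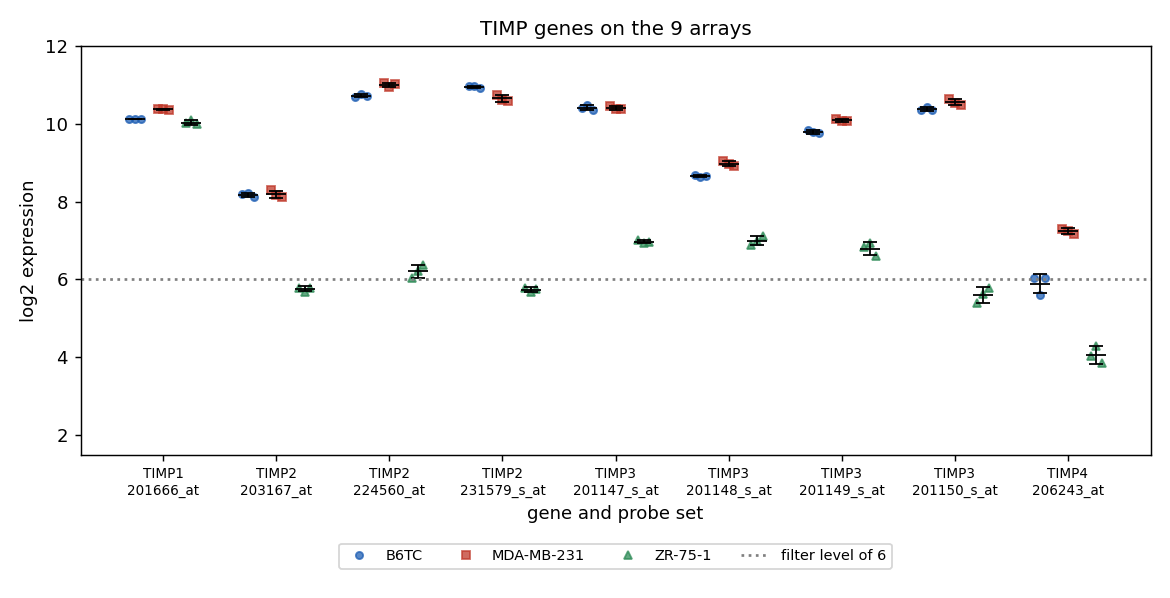
Log2 expression of the 9 TIMP probe sets on every array (points), with the mean and SD of 3 arrays per line (bars), and the filter level of 6 as a dotted line. TIMP1 lies between 9.98 and 10.38 on all 9 arrays, and TIMP4 falls in the order MDA-MB-231, B6TC, ZR-75-1.

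The members set B6TC and MDA-MB-231 together apart from ZR-75-1. Of the 16 tested probe sets, 15 were called higher in B6TC than in ZR-75-1 and none lower, and the exception was TIMP1. In this comparison 83.7% of all tested probe sets were called and 43.0% were called higher. All 16 were called higher in MDA-MB-231 than in ZR-75-1, where 83.7% of all tested probe sets were called and 43.8% were called higher. The median log2 difference of the members was 3.97 in B6TC against ZR-75-1, beside 0.0074 over all tested probe sets, and 3.76 in MDA-MB-231 against ZR-75-1, beside 0.032. These 2 comparisons share the ZR-75-1 arrays. Of the 16 probe sets, 10 were below 6 on all ZR-75-1 arrays and so passed the filter only through lines in which they were higher. Without the filter, all 17 were tested, and 16 were called higher in each of these comparisons. Of all probe sets, 48.1% (B6TC) and 46.5% (MDA-MB-231) were then called in either direction.

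**Figure D4:**
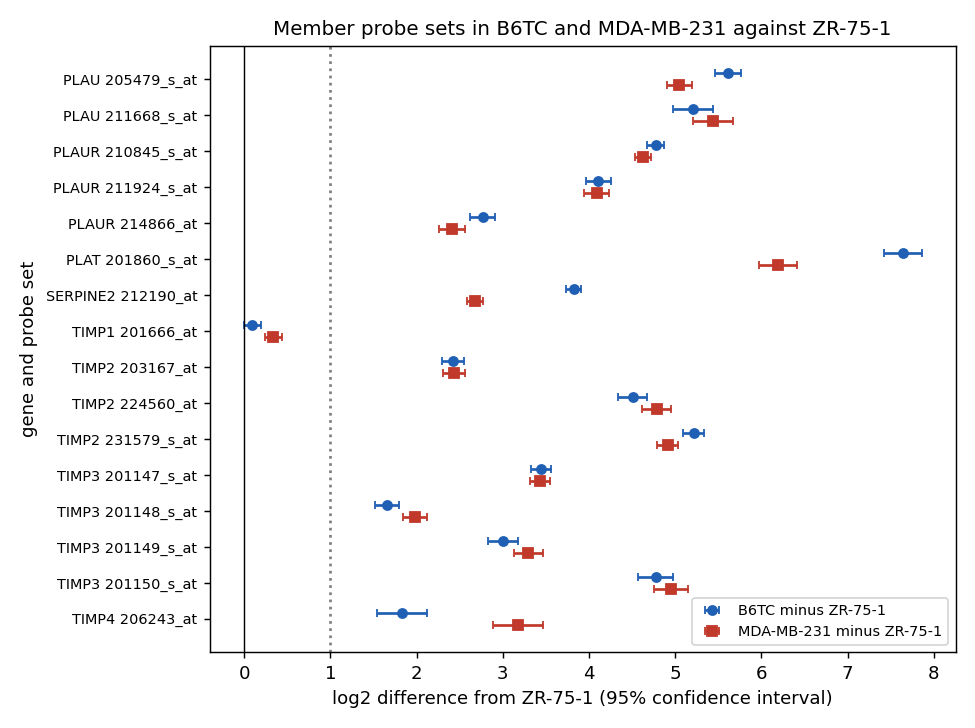
Log2 difference from ZR-75-1 of B6TC (circles) and of MDA-MB-231 (squares) for the 16 tested probe sets, with 95% confidence intervals (bars) and a dotted line at 2-fold. The TIMP1 probe set lies at 0.093 in B6TC and 0.34 in MDA-MB-231, and the other 15 lie between 1.66 and 7.64.

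Around the members, the genes that bring plasminogen to the surface differed by less than 2-fold between B6TC and MDA-MB-231. Of 5 plasminogen and docking genes, 4 were tested, 1 was higher and 2 were lower, with a median difference of -0.13, beside 0.0086 over all probe sets. Over all tested probe sets 33.9% were called higher and 31.3% lower. PLGRKT, a plasminogen receptor, was higher by 0.69 (limma adjusted p 1.479e-05), and ENO1, an enolase that binds plasminogen at the surface, and ANXA2, the annexin that binds plasminogen and PLAT, were lower, with differences of -0.38 and -0.17. S100A10, the partner of ANXA2, differed by -0.098 and was not called (limma adjusted p 0.07362). PLG itself, plasminogen, was at 4.32 in B6TC and 4.12 in MDA-MB-231, and was not tested. Relative to ZR-75-1, PLGRKT was lower and ANXA2 higher in both lines, by differences of -1.27 and 1.22 in B6TC and of -1.96 and 1.38 in MDA-MB-231. ENO1 was higher, by 0.43 in B6TC and 0.82 in MDA-MB-231, and S100A10 lower, with differences of -0.56 and -0.46, in the same comparisons.

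Of 6 further genes for inhibitors of plasminogen activators and plasmin that had a probe set, 2 were tested and both were higher in B6TC. Against MDA-MB-231, 33.9% of all tested probe sets were called higher in B6TC. TFPI2, a Kunitz inhibitor of plasmin, averaged 11.16 in B6TC, 10.22 in MDA-MB-231, with ZR-75-1 at 8.12. The difference of B6TC minus MDA-MB-231 was 0.94 (limma adjusted p 7.877e-07) and that of B6TC minus ZR-75-1 was 3.04 (limma adjusted p 1.84e-11), and TFPI2 was 2.10 higher in MDA-MB-231 than in ZR-75-1. SERPINI1, neuroserpin, an inhibitor of PLAT, averaged 7.02 in B6TC, 6.10 in MDA-MB-231, with ZR-75-1 at 4.55. Its difference between B6TC and MDA-MB-231 was 0.92 (limma adjusted p 0.0002997) and between B6TC and ZR-75-1 2.47, and it was 1.55 between MDA-MB-231 and ZR-75-1. The ZR-75-1 mean of SERPINI1 lies under the filter level of 6, which it passed through lines in which it was higher. The other 4 genes did not reach the filter.

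Among 9 tested genes for receptor partners and clearance receptors, 5 were lower and none higher in B6TC relative to MDA-MB-231, with a median of -0.13. Over all tested probe sets 31.3% were called lower and 33.9% higher, with a median of 0.0086. The 5 lower genes were the integrin chain ITGA3 (-0.52, limma adjusted p 0.0005859), the sorting receptor SORL1 (-0.38), the scavenger receptor LRP1 (-0.26), its chaperone LRPAP1 (-0.22) and MRC2 (-0.13), a collagen receptor that forms a complex with PLAUR. Without the third B6TC array 3 remained, and LRP1 and MRC2 were no longer called. SORL1 averaged 5.12 in B6TC and 5.50 in MDA-MB-231, both under the filter level of 6, and 6.48 in ZR-75-1. Against ZR-75-1, 43.0% of all tested probe sets were called higher in B6TC and 43.8% in MDA-MB-231, and 83.7% were called in each comparison. Among the 9 genes, 5 were higher and 3 lower than in ZR-75-1, in B6TC as well as in MDA-MB-231. ITGA3 was higher by 2.28 in B6TC and 2.80 in MDA-MB-231, ITGA5 by 1.55 and 1.68, and ITGB1 by 1.35 and 1.29, and SORL1 was lower by differences of -1.36 and -0.98. The 2 probe sets of LRPAP1 were called in opposite directions in both of these comparisons, and those of MRC2 in that of B6TC.

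Genes for activators of pro-urokinase and their inhibitors were tested in 6 cases. Of all tested probe sets, 33.9% were called higher and 31.3% lower in B6TC against MDA-MB-231. Between B6TC and MDA-MB-231, SPINT2, a membrane Kunitz inhibitor, was lower (-0.39, limma adjusted p 3.442e-05), and the cathepsins CTSL and CTSB were higher by 0.18 and 0.16. The call on CTSL was lost without the third B6TC array, where SPINT1 was called lower, and the tested probe sets of CTSB included calls in both directions. Against ZR-75-1, 43.0% of all tested probe sets were called higher in B6TC and 43.8% in MDA-MB-231, and 83.7% were called in each comparison. Relative to ZR-75-1, 2 of the 6 were higher and 4 lower in B6TC, and none higher and 3 lower in MDA-MB-231. Without the third B6TC array 3 were lower in B6TC, since KLK4, a kallikrein that can activate pro-urokinase, was no longer called (difference -0.12, limma adjusted p 0.03832 with that array). SPINT1, an inhibitor of matriptase, averaged 4.98 in B6TC, 5.18 in MDA-MB-231, with ZR-75-1 at 9.90, and ST14, matriptase itself, averaged 5.95, 6.06 and 8.995 in the same order. The differences from ZR-75-1 were -4.92 for SPINT1 and -3.05 for ST14 in B6TC, and -4.71 and -2.94 in MDA-MB-231. SPINT2 was lower in the same comparisons, by differences of -0.95 and -0.56, and CTSL was higher by 0.24 in B6TC (limma adjusted p 0.00416).

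Of the 15 genes for proteases that TIMPs bind and for RECK, a membrane-anchored inhibitor of metalloproteinases, 9 were tested, 3 were higher and 5 lower in B6TC relative to MDA-MB-231. Over all tested probe sets 33.9% were called higher and 31.3% lower. The collagenase MMP1 averaged 13.42 in B6TC, 7.86 in MDA-MB-231, with ZR-75-1 at 2.82, a difference of 5.56 between B6TC and MDA-MB-231 (SE 0.086, limma adjusted p 2.412e-10). The stromelysin MMP3 averaged 7.61, 3.33 and 3.07 in the same order and differed by 4.29 between B6TC and MDA-MB-231 (limma adjusted p 2.412e-10). MMP3 entered the test only through the 3 B6TC arrays, so it was not tested when any of them was left out, and without the third 2 genes were higher and 5 lower. ADAM17 was higher by 0.50 and ADAM10 lower (-0.40, limma adjusted p 6.68e-05), both membrane sheddases, and both ADAM17 and MMP16 had another probe set called the other way. MMP9, MMP15, MMP16 and RECK were lower, with differences of -0.16 to -0.28. MMP9 averaged 5.23 in B6TC and 5.395 in MDA-MB-231, both under the filter level of 6, and 6.52 in ZR-75-1. The median over the 9 genes was -0.16. Against ZR-75-1, 43.0% of all tested probe sets were called higher in B6TC and 43.8% in MDA-MB-231, and 83.7% were called in each comparison. Of the 9 genes, 5 were higher and 4 lower than in ZR-75-1 in each line, and 4 and 4 without the third B6TC array, when MMP3 was not tested. MMP1 was higher by 10.60 in B6TC and by 5.04 in MDA-MB-231, MMP3 by 4.55 in B6TC, and MMP9, the gelatinase, was lower by differences of -1.29 and -1.13. MMP16 was lower by differences of -1.27 in B6TC and -0.99 in MDA-MB-231, and ADAM10 was 1.24 higher in MDA-MB-231 than in ZR-75-1.

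**Figure D5:**
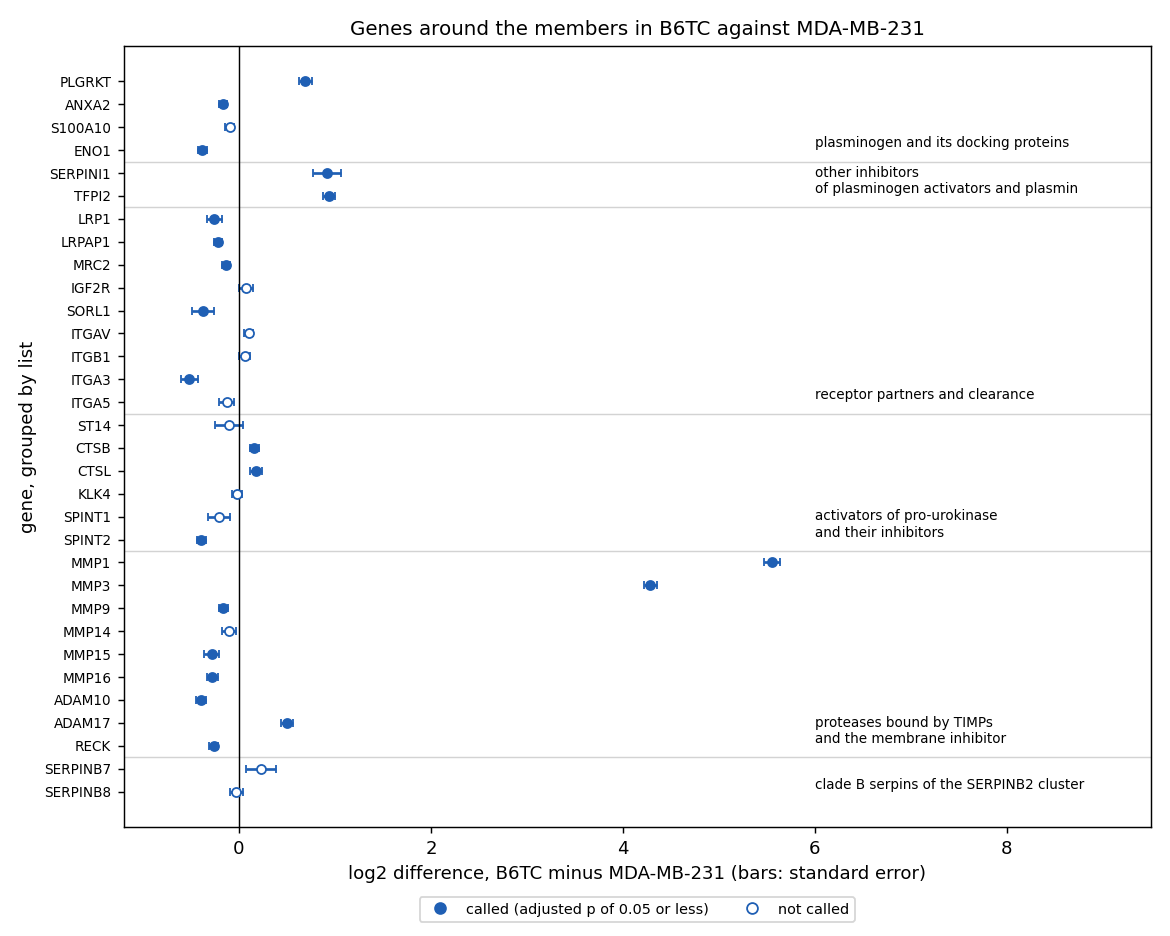
Log2 difference of B6TC minus MDA-MB-231 for the tested genes of 6 lists around the members (points, filled where called, 1 probe set per gene), with standard errors (bars). MMP1 at 5.56 and MMP3 at 4.29 lie far right of the other genes, which lie between -0.52 and 0.94.

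In the clade B serpin cluster to which SERPINB2 belongs, 9 other genes had a probe set and 2 were tested. SERPINB7 averaged 7.05 in B6TC, 6.82 in MDA-MB-231, with ZR-75-1 at 4.70, and SERPINB8 averaged 7.46, 7.48 and 5.34 in the same order. Neither was called between B6TC and MDA-MB-231 (limma adjusted p 0.2258 and 0.7485). Both were called higher than in ZR-75-1, by 2.35 and 2.12 in B6TC and by 2.12 and 2.14 in MDA-MB-231. In ZR-75-1 both averaged under the filter level of 6, which they passed through lines in which they were higher. Of all tested probe sets, 43.0% were called higher in B6TC than in ZR-75-1 and 43.8% in MDA-MB-231. The other 7 genes did not reach the filter. SYN1, SYN2 and SYN3 are the synapsin genes within which TIMP1, TIMP4 and TIMP3 lie. None of them passed the filter, and in B6TC they averaged 5.11, 4.30 and 4.69, against 5.59, 4.43 and 4.57 in MDA-MB-231.

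Median differences of the lists from ZR-75-1 were 2.75 in B6TC and 1.83 in MDA-MB-231 for the further inhibitors, over only 2 tested genes. They were 0.31 and 0.44 for receptor partners and clearance (9 tested genes). For activators of pro-urokinase and their inhibitors (6 tested genes) they were -0.54 in B6TC and -0.33 in MDA-MB-231. For the proteases with RECK (9 tested genes) they were 0.29 and 0.16. For the docking genes (4 tested genes) they were -0.062 in B6TC and 0.18 in MDA-MB-231. Over all tested probe sets the medians were 0.0074 in B6TC and 0.032 in MDA-MB-231.

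The tested genes beside each member on its chromosome, 5 on either side in the order of the RefSeq table, were read as local context. Of all tested probe sets, 43.0% were called higher in B6TC than in ZR-75-1 and 83.7% were called in either direction. Between B6TC and MDA-MB-231, 33.9% were called higher and 31.3% lower. Around TIMP3, B6TC exceeded ZR-75-1 in none of the 10 neighbours and was lower in 8, with a median of -0.76 and a highest value of -0.040, while the TIMP3 probe set of highest mean differed by 3.44. Around PLAT, 4 of 10 were higher and 1 lower in that comparison, with differences of -0.31 to 0.91, while PLAT differed by 7.64. The neighbours of SERPINE2 were higher in 8 of 10 cases and lower in 1 between B6TC and ZR-75-1, with differences of -0.63 to 4.26, a range that holds the 3.82 of SERPINE2. Around TIMP1, 1 was higher and 7 lower in B6TC minus MDA-MB-231, with a median of -0.23, beside -0.24 for TIMP1. For TIMP4 in that comparison the neighbours ranged from -0.60 to 0.21, against -1.35 for TIMP4.

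Genes whose levels ran most like a member over the 3 line means were picked by the Euclidean distance between mean-centered log2 profiles, over 3 points and with no test. For PLAU they were DUSP4, a phosphatase of MAP kinases (distance 0.049), and F2R, the thrombin receptor PAR1 (0.076). For PLAUR they were MEF2C and EDNRB (0.060 and 0.086), and for PLAT MAFF and PTX3 (0.29 and 0.33). For SERPINE2 they were AK5 and TSPAN8 (0.11 and 0.13), and for TIMP1 SMAD2 and TSHZ1 (0.0026 and 0.0050). For TIMP2 they were PRSS23 and MCAM (0.044 and 0.077), for TIMP3 SASH1 and NLRP2 (0.011 and 0.026), and for TIMP4 IGFBP4 and TMEFF2 (0.043 and 0.13). IGFBP4 averaged 11.20 in B6TC, 12.61 in MDA-MB-231, with ZR-75-1 at 9.40, the same order as TIMP4. PTX3 averaged 10.82 in B6TC, 9.11 in MDA-MB-231, with ZR-75-1 at 2.73, the same order as PLAT.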

How the data were processed

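RNA of 3 lines was hybridised to 9 Affymetrix U133 Plus 2.0 arrays. The deposited log2 values are those the authors made, per the submitters' processing notes with Affymetrix Expression Console and RMA, versions not given. The methods name GC-RMA and GCOS, and which of them applies was not settled from the values. RMA and GC-RMA treat background differently, which bears most on low values such as those of ZR-75-1. Symbols came from the platform annotation updated by gene identifier, and columns left unused numbered 0.

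The test was the empirical Bayes statistic of limma 3.58.1 (R 4.3.3), fitted over all 9 arrays with a mean for each line (6 residual and 3.68 prior degrees of freedom), at an adjusted p of 0.05. The procedure was tested on simulated data. The members and lists were chosen with earlier results of these data known. All member probe sets are given. From each list the text names the 4 largest called differences per comparison, plus some others chosen after their values were seen, with a gene read by its probe set of highest mean, and for each member the 2 genes nearest in profile. Alternatives covered filter, scaling, variance model, probe set averaging, replicate block and the omission of each array.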

Additional observations from a re-analysis of the deposited data

How the results depend on the processing

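Across 21 alternative settings, the count of member probe sets called in each comparison stayed within 1.5 times its value, apart from 2 settings whose construction counts less. When the probe sets of each gene were averaged, 8 genes were counted in place of 16 probe sets. Between B6TC and MDA-MB-231 6 were then called, 3 higher and 3 lower, and 8 were higher in B6TC and 8 in MDA-MB-231 than in ZR-75-1. At 2-fold or more, 3 were called between B6TC and MDA-MB-231, 2 higher and 1 lower.

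For B6TC minus MDA-MB-231, the mean over the probe sets of a gene had the opposite sign to 4 single probe sets. The gene means were 0.16 for PLAU (opposite to 211668_s_at), 0.0028 for TIMP2 (opposite to 203167_at and 224560_at) and -0.20 for TIMP3 (opposite to 201147_s_at). TIMP2 203167_at turned to 0.026 when arrays were centered on their medians, and TIMP3 201147_s_at to -0.020 after quantile normalization again. Leaving out each array gave -0.028 to 0.064 for PLAUR 211924_s_at, -0.053 to 0.037 for TIMP2 203167_at and -0.025 to 0.040 for TIMP3 201147_s_at, none of which was called in the report. Leaving out each array gave 11 to 13 called member probe sets for B6TC minus MDA-MB-231, 15 to 16 for B6TC minus ZR-75-1 and 16 throughout for MDA-MB-231 minus ZR-75-1. Of the settings of single results, those that kept direction and call numbered 293 for B6TC minus MDA-MB-231, 314 for B6TC minus ZR-75-1 and 319 for MDA-MB-231 minus ZR-75-1, while 3 lost a call, 11 gained one and 12 turned sign in the first comparison and 5 gained one in the second. Under averaging, the mean of the gene stood in for each of its probe sets in these counts. The 3 losses were PLAU 205479_s_at (gene mean 0.16) and TIMP2 231579_s_at (gene mean 0.0028) under averaging and PLAUR 210845_s_at without a filter (0.15). The 5 gains were all of TIMP1. The filter on level and variation gave no value for TIMP1, which varied too little to pass it. The cause of the changes that the averaging does not account for was not tested.

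With the replicate number as a block the counts were 11 (6 higher, 5 lower), 15 and 16, and no call on a member probe set changed. The numbers did not pair the arrays: deviations from the line means correlated at -0.10 to 0.18 between arrays of the same number and at -0.21 to 0.23 between arrays of different numbers. The median of all tested probe sets for B6TC minus MDA-MB-231 was 0.0086, and 0.049 and -0.017 under the 2 other scalings. Arrays give no count of molecules, and 3 replicates per line, technical by their labels, limit the precision to that of the measurement. The third B6TC array stood apart in luminal markers, and whether it holds the same RNA as the other B6TC arrays was not tested.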
